A study of Mus musculus with 15 samples.

Results

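Transcripts of 7 chemokine and chemoattractant receptor genes were followed across macrophages of 6 tissue sources in the mouse. The genes were chosen by symbol: Cx3cr1, Ccr1, Ccr2, Ccr7, Ccrl2, Cxcr4 and Cmklr1. All 7 were among the 24084 genes of the corrected count table, and all 7 were among the 15289 genes abundant enough to test. The cells were sorted as F4/80+CD45+ from C57BL/6J animals and were profiled ex vivo, with no culture, by low-input RNA-seq. There were 3 libraries of macrophages from sympathetic ganglia (SAM ganglia; the dissected ganglia are called SCG in the protocol), 2 from sympathetic nerve fibers of inguinal fat (SAM fibers), 2 from subcutaneous fat (sATM), 2 from visceral fat (vATM), 3 from spleen (SpM) and 3 from brain (microglia). SAM stands for sympathetic-associated macrophages, and both fat groups are labelled anti-inflammatory adipose macrophages. No genotype, treatment, sex or age separates the groups, and every library title carries the tag ND, which is not spelled out. Tissues of 10 mice were used, and nothing states which animals entered which library, so p-values measure how far these libraries scatter, and that scatter may be technical only. Enzymes differed by tissue at 37 °C: collagenase for 30 min for fat, spleen and brain, hyaluronidase for 30 min then collagenase for 15 min for fibers, and collagenase for 10 min then trypsin for 30 min for ganglia. Tissue and digestion cannot be told apart. In mm10 coordinates Cx3cr1 lies on chromosome 9 (120048683 to 120068296, minus strand), as do Ccrl2 (111054834 to 111057518, minus), Ccr1 (123962126 to 123968692, minus) and Ccr2 (124102183 to 124109140, plus). Ccr7 lies on chromosome 11 (99144199 to 99155077, minus), Cxcr4 on chromosome 1 (128588199 to 128592299, minus) and Cmklr1 on chromosome 5 (113612355 to 113650390, minus).

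Chemokine receptors are seven-pass membrane proteins that couple mainly to inhibitory G proteins and steer leukocytes along gradients of small secreted ligands. Cx3cr1 encodes the receptor of fractalkine (Cx3cl1), a ligand held on the membrane of neurons among other cells, and is a usual marker of microglia. Ccr2 encodes the receptor of Ccl2 and its relatives, through which monocytes leave the bone marrow, and Ccr1 a receptor of Ccl3, Ccl5 and others. Cxcr4 binds Cxcl12, the retention signal of the marrow, and Ccr7 binds Ccl19 and Ccl21, which guide dendritic cells to lymph nodes. Cmklr1 is the signalling receptor of chemerin, while Ccrl2 is an atypical receptor that binds chemerin and presents it without classical signalling.

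Library totals after correction ran from 2.55 M to 12.52 M counts (M for mega), so that 3 counts, taken as the lowest level distinguishable from 0, stood for 0.249 to 0.897 CPM (counts per M counts after TMM scaling; counting error only). As a gauge of DNA background, 1125 genes for olfactory receptors took 32.9 to 1230 of each M raw counts, with the highest value in SAM fibers 1. The pair of fiber libraries correlated at 0.605 on log2 CPM, against 0.781 to 0.959 within the other groups. The labelled tissues carried their markers: the summed level of 8 microglia genes was 14208 to 15005 CPM in microglia, that of 6 red pulp macrophage genes 8124 to 13082 CPM in SpM, and that of 6 genes of resident adipose macrophages 1789 to 6158 CPM in sATM and 8637 to 12158 CPM in vATM. The adipose sum was also 1381 to 2506 CPM in ganglia and 856 to 1427 CPM in fibers, so it did not set sATM 1 (1789 CPM) apart from ganglia.

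Levels of 5 of the 7 receptors differed among the 6 groups (edgeR quasi-likelihood F-test, adjusted p below 0.05), where 22.2% of all tested genes did. These were Cx3cr1 (adjusted p = 1.46e-07), Cxcr4 (2.54e-06), Ccr1 (3.26e-06), Ccrl2 (1.28e-05) and Ccr2 (1.36e-05). Ccr7 (adjusted p = 0.409) and Cmklr1 (adjusted p = 0.242) did not pass. DESeq2 called 5 of the 7 and voom 6. Each of the 5 called by edgeR had its own order of tissues, but SpM was last or next to last in all of them. In bulk libraries such as these, fewer cells of a type and less RNA per cell cannot be told apart.

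**Figure D1:**
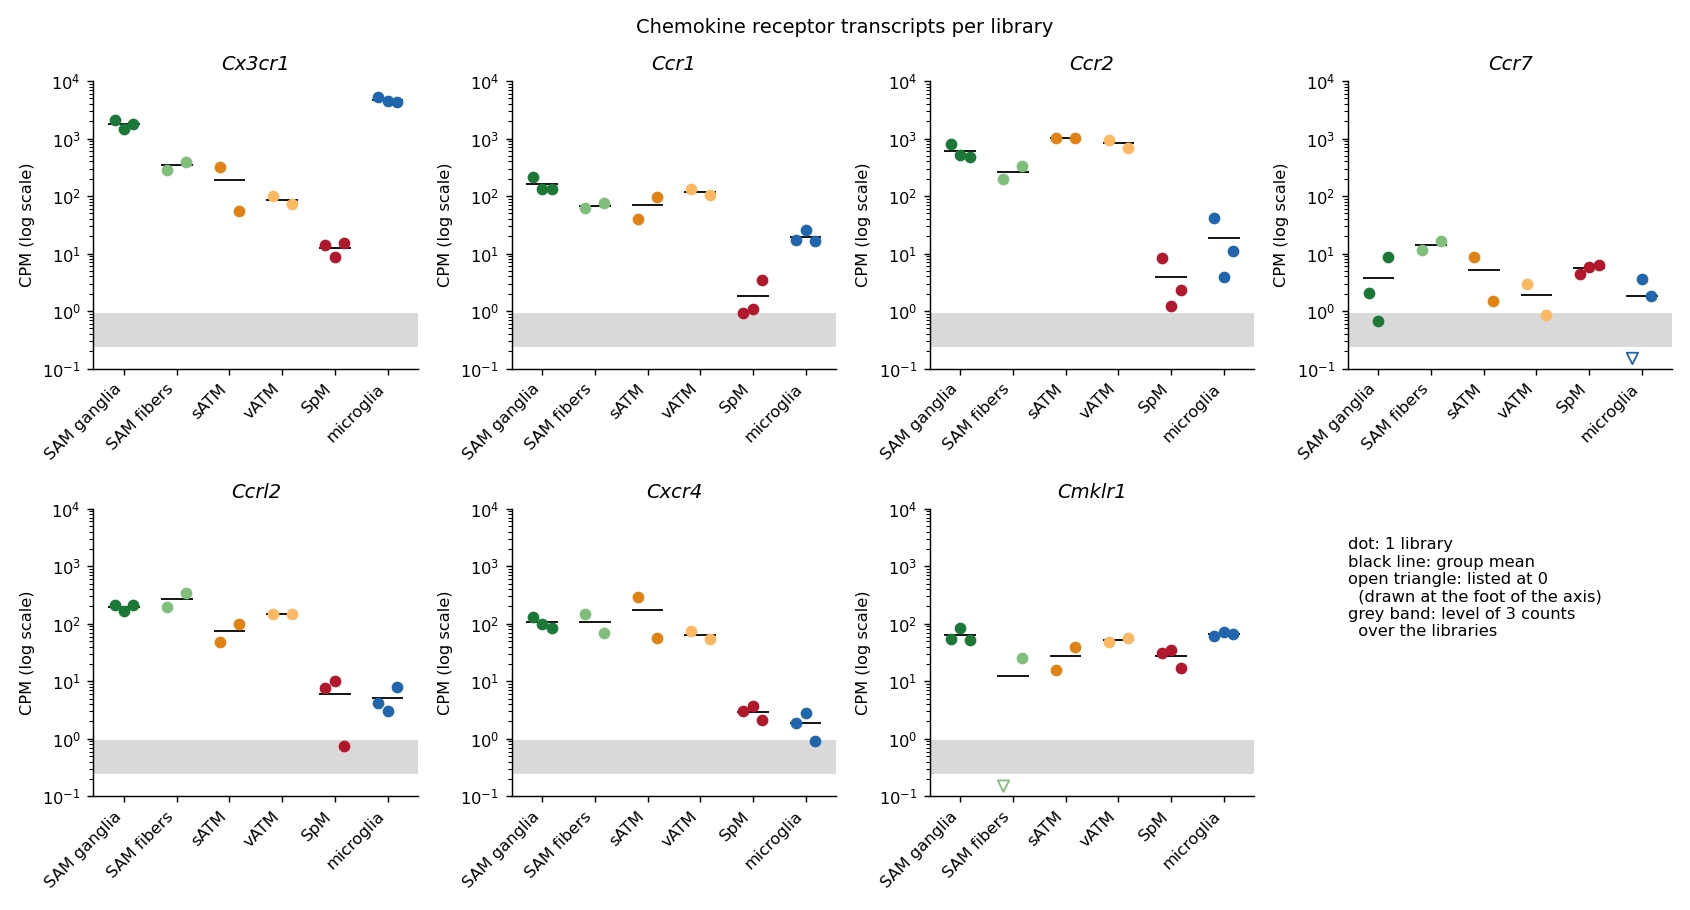
Level of each receptor gene in each library, as CPM on a log axis, with 1 panel per gene, 1 dot per library, a line at the group mean, an open triangle for a value of 0 and a grey band at the level of 3 counts. The Cx3cr1 points of microglia lie at 4286 to 5185 CPM and those of SpM at 8.75 to 15.1 CPM, while Ccr2, Ccrl2 and Cxcr4 are low in both SpM and microglia.

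Group means of Cx3cr1 ran from 12.6 CPM in SpM to 4627 CPM in microglia. Its level was 5185, 4411 and 4286 CPM in microglia and 2129.7, 1468 and 1810.3 CPM in SAM ganglia. It was 285 and 396 CPM in SAM fibers, 326 and 53.9 CPM in sATM, and 98.7 and 72.0 CPM in vATM. The SpM libraries had 14.1, 8.75 and 15.1 CPM. Every microglia library stood above every ganglia library, every ganglia library above all of fibers and fat, and every library of fibers and fat above SpM, while fibers and sATM overlapped. Between pairs of groups, 11 of 15 differences were called, a call being an adjusted p below 0.05 with a log2 difference of at least 1 in size. Ganglia exceeded sATM by 3.25 ± 0.57 on the log2 scale (± SE of the fit; adjusted p = 0.00510) and vATM by 4.40 ± 0.60 (adjusted p = 8.09e-04). In these 2 comparisons Cx3cr1 was the only one of the 7 genes called, where 2.68% and 1.85% of all genes were. The difference from sATM was 4.90 without sATM 1, the library with the most Cx3cr1 of that pair. The lower level in ganglia than in microglia was not called (-1.36 ± 0.45, adjusted p = 0.0892), although the libraries did not overlap. It was called in 8 of 26 alternatives, among them DESeq2, voom and the omission of either sATM library. Fibers against vATM had 0 of 7 genes called by edgeR (5.14% of all genes), 2 at an unadjusted p under 0.05, and 1 by DESeq2 and by voom; for Cx3cr1 the difference there was 1.996 ± 0.56 (adjusted p = 0.0513). Of neighbours in the order of means, ganglia and fibers were called apart, as were vATM and SpM; microglia and ganglia, fibers and sATM, and sATM and vATM were not.

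Ccr2, the receptor of monocyte-attracting ligands, had a different order, with fat first. It was at 1031 and 1027 CPM in sATM, 961 and 688 CPM in vATM, 818, 509 and 476 CPM in ganglia, and 198 and 336 CPM in fibers. Microglia had 40.9, 3.93 and 10.9 CPM and SpM 8.32, 1.203 and 2.28 CPM. All 9 libraries of ganglia, fibers and fat therefore exceeded all 6 of spleen and brain. The 4 groups of nerve and fat were not called apart from each other in any pair. Fibers had lower values than sATM in both libraries, but the difference of -1.95 ± 0.80 was not called (adjusted p = 0.180).

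Markers of monocytes were read beside these 2 receptors. Of 8 listed genes of classical monocytes 7 were in the table, and their summed level was 1865 to 2790 CPM in sATM, 2398 to 2699 CPM in vATM, 466 to 819 CPM in fibers, 78.4 to 135 CPM in ganglia, 30.3 to 46.4 CPM in SpM and 15.4 to 36.3 CPM in microglia. None of the 7 was at 0 in all libraries of a group. Ganglia thus had Ccr2 within the range of fat and fibers at a lower sum of these markers. The 5 listed genes of patrolling monocytes, a class that carries much Cx3cr1, summed to 1738 CPM in sATM 1 and 181 CPM in sATM 2. The same pair of libraries had 326 and 53.9 CPM of Cx3cr1, 293 and 55.4 CPM of Cxcr4, and 1031 and 1027 CPM of Ccr2. The patrolling sum was 1581 to 2032 CPM in fibers, 251 to 368 CPM in ganglia, 256 to 381 CPM in vATM, 439 to 595 CPM in SpM and 6.74 to 20.5 CPM in microglia, and Spn was at 0 in both fat groups. Nr4a1, also an immediate-early gene, supplied 1691 CPM of the mean in fibers, 577 CPM in sATM, 305 CPM in vATM and 259 CPM in ganglia. In SpM most of the sum was Treml4 (480 CPM). The part of either list in the receptor levels was not tested.

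Ccr1 had its highest mean in ganglia. Its level was 216, 133 and 129.995 CPM in ganglia, 132 and 102 CPM in vATM, 39.98 and 98.2 CPM in sATM, and 62.2 and 74.7 CPM in fibers. Microglia had 16.9, 26.1 and 16.3 CPM, and SpM 0.915, 1.09 and 3.50 CPM. The 3 tiers (nerve and fat, microglia, SpM) did not overlap. Fibers and microglia were called apart, as were microglia and SpM (SpM lower by -3.48 ± 0.50, adjusted p = 1.21e-04), and no pair within the upper tier was. Ccr1 and Ccr2 belong to a cluster of receptor genes on chromosome 9, with 133.5 kb between them (mm10), where Ccr1l1 and Ccr3 lie.

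Ccrl2, the atypical chemerin receptor, had its highest mean levels in the 2 nerve groups. It was at 192 and 343 CPM in fibers, 208, 167 and 212 CPM in ganglia, 146 and 146 CPM in vATM, and 48.6 and 100.02 CPM in sATM. SpM had 7.48, 10.1 and 0.761 CPM and microglia 4.24, 3.09 and 8.06 CPM. Every SAM library stood above every fat library, and every fat library above spleen and brain. No pair within nerve and fat was called: fibers exceeded sATM by 1.84 ± 0.67 (adjusted p = 0.129). Spleen and brain overlapped and were not called apart.

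Cxcr4 showed the same 2 tiers. It was at 133, 99.7 and 85.7 CPM in ganglia, 147 and 68.5 CPM in fibers, 293 and 55.4 CPM in sATM, and 74.6 and 53.9 CPM in vATM. SpM had 3.08, 3.72 and 2.13 CPM and microglia 1.90, 2.81 and 0.912 CPM. The lowest library of nerve and fat was thus far above the highest of spleen and brain, and sATM 1 was the highest of all. Levels of Ccr1, Ccr2, Ccrl2 and Cxcr4 went together across the 15 libraries, with Pearson r from 0.78 (Ccr1 with Cxcr4) to 0.90 (Ccr2 with Cxcr4) on log2(CPM + 1). Spearman's rho for the same pairs was lower, from 0.55 (Ccr2 with Ccrl2) to 0.75. Cx3cr1 had r from 0.07 to 0.49 with these 4 genes. These coefficients describe libraries that share tissue, and no test was made of them.

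To set these 4 genes beside Cx3cr1, the 250 bases before the start of each are shown, using the transcript start given with the corrected counts. They come from RefSeq (GRCm38.p6, the build named mm10 by the authors), which had entries for 6 of the 7 genes. Ccr7 had none. Ccrl2 also had entries with starts at 111057244 and 111057270, which are not shown. The RefSeq gene of Ccr2 starts at 124101918, so the Ccr2 window lies within that gene. The windows are chr9:120068297-120068546 (minus strand) for Cx3cr1, chr9:123968693-123968942 (minus) for Ccr1, chr9:124101933-124102182 (plus) for Ccr2, chr9:111057519-111057768 (minus) for Ccrl2 and chr1:128592300-128592549 (minus) for Cxcr4. Each is written 5′ to 3′ along the gene, and capitals mark a match to the TATA box TATAAA on either strand.
Cx3cr1: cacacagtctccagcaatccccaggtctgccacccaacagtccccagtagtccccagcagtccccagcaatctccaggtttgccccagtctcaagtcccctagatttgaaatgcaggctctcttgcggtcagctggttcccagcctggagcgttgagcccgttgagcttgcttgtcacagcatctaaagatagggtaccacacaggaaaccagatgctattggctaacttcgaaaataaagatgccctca
Ccr1: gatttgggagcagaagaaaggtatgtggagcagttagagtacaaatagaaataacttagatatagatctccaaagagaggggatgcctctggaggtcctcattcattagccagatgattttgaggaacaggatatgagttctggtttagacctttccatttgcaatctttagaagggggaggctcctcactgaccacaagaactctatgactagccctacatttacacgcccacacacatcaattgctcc
Ccr2: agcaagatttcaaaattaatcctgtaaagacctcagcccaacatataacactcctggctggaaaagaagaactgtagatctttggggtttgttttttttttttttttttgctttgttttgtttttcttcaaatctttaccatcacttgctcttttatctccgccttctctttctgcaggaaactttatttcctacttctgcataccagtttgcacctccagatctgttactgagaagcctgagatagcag
Ccrl2: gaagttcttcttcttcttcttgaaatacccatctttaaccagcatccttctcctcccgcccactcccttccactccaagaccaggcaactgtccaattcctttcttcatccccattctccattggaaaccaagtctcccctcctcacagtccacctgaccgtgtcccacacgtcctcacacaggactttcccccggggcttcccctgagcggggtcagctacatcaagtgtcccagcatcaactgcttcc
Cxcr4: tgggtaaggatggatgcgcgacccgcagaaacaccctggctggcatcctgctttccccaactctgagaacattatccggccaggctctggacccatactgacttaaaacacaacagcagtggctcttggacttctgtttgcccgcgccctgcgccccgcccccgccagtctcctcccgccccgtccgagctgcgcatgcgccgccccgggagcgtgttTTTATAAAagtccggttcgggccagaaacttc
Only Cxcr4 had a TATA box, on both strands in 1 overlapping stretch whose matches begin 32 and 30 bases before the start. TATAAA was found in 13.6% of 32851 promoters of the same length (300 bases, 250 before and 50 after the start). This motif was added after the sequences were seen. The letters GAGGAAGT (a PU.1 core, in 3.20% of promoters), TGANTCA (AP-1, 7.81%) and GGGANTTCC (NF-κB, 1.68%) were also searched on both strands, and no entry of the 6 genes held them.

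Ccr7 was low throughout. Its level was 2.08, 0.664 and 8.63 CPM in ganglia, 11.4 and 16.4 CPM in fibers, 8.66 and 1.49 CPM in sATM, 2.99 and 0.860 CPM in vATM, 4.32, 5.91 and 6.39 CPM in SpM, and 0, 3.65 and 1.82 CPM in microglia. In CPM both fiber libraries exceeded all 13 others. However, edgeR called 0 of the 15 pairs of groups, and 1 pair, fibers against microglia, had an unadjusted p under 0.05. DESeq2 called that pair and voom called none. The deposited RPKM of SAM fibers 1 was 0.820 against 8.44 in SAM fibers 2, a wider gap than in the counts. In RPKM SAM fibers 1 was below every SpM library (2.14 to 3.07), so the order seen in CPM did not hold there. At 0 to 79 corrected counts per library, differences in Ccr7 were hard to detect.

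Cmklr1, the chemerin receptor, had its highest means in brain, ganglia and visceral fat. It was at 61.8, 71.0 and 67.6 CPM in microglia, 54.5, 84.3 and 52.2 CPM in ganglia, 48.6 and 56.4 CPM in vATM, 15.8 and 38.9 CPM in sATM, and 30.9, 35.2 and 17.3 CPM in SpM. Of the fiber libraries, SAM fibers 1 was listed at 0 and SAM fibers 2 had 25.0 CPM. The 0 stands against 805 raw gene-body counts in the same library and can be a failed estimate, so no fiber mean is given here; tests that include fibers, the SAM contrast among them, do use this value. Of the 15 pairs of groups edgeR called 0, and 3, all with fibers, had an unadjusted p under 0.05. DESeq2 called fibers against microglia. The libraries of SpM were all below those of microglia, by -1.26 ± 0.71 (adjusted p = 0.379), a difference that was called by voom (adjusted p = 0.00226) and without either fiber library (adjusted p = 0.0491 without SAM fibers 1 and 0.0177 without SAM fibers 2). Voom also called ganglia against SpM, and Cmklr1 higher in microglia against the other 5 groups. Without SAM fibers 2 the fiber group is the library listed at 0 alone, so calls with fibers in that setting rest on its value and are not given. The antisense gene Gm15736 overlaps Cmklr1, and the counting is not stated to use strand.

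Broader contrasts set 1 tissue source against the others. SAM (the mean of ganglia and fibers minus the mean of the other 4 groups on the log2 scale) had 5 of 7 higher and 0 lower, where 9.15% of all genes were called (5.71% higher and 3.44% lower). Ccrl2 was higher by 3.23 ± 0.36 (adjusted p = 2.01e-05), Cxcr4 by 2.76 ± 0.33 (adjusted p = 4.02e-05), Ccr1 by 2.18 ± 0.28 (adjusted p = 8.52e-05), Cx3cr1 by 2.16 ± 0.29 (adjusted p = 1.44e-04) and Ccr2 by 2.15 ± 0.42 (adjusted p = 0.00332). The low values of SpM, and of microglia for 4 of the genes, weigh most in this log-scale mean. Cx3cr1 had its highest mean in microglia, Ccr2 in fat and Cxcr4 in sATM, not in SAM. On the linear scale the SAM mean was below that of the other groups for Cx3cr1 (1071 against 1229 CPM) and Ccr2 (434 against 469 CPM). It was above for Ccr1, Ccrl2 and Cxcr4.

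Microglia against the other 5 groups had 1 of 7 higher and 4 lower (13.7% of all genes called, 7.26% higher and 6.47% lower). Cx3cr1 was higher by 4.80 ± 0.31 (adjusted p = 3.04e-08). Cmklr1 was higher by 1.07 ± 0.53, which edgeR did not call (adjusted p = 0.216) and voom did. Cxcr4 (-4.85 ± 0.57), Ccrl2 (-3.96 ± 0.57), Ccr2 (-3.54 ± 0.65) and Ccr1 (-1.15 ± 0.37, adjusted p = 0.0429) were lower. The Ccr1 call was lost in 14 of 26 alternatives, among them the omission of any 1 microglia library (adjusted p 0.0555 to 0.194).

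SpM against the other 5 groups had 0 higher and 5 lower (12.4% of all genes called, 6.72% higher and 5.72% lower). The differences were -6.22 ± 0.77 for Ccr2, -5.42 ± 0.51 for Cx3cr1, -5.33 ± 0.49 for Ccr1, -3.96 ± 0.52 for Cxcr4 and -3.65 ± 0.55 for Ccrl2, with adjusted p from 1.09e-06 (Ccr1) to 1.73e-04 (Ccrl2). Fat (sATM and vATM) against the other 4 groups had 4 higher and 1 lower (8.56% of all genes called, 5.66% higher and 2.9% lower). Ccr2 (3.95 ± 0.43), Cxcr4 (2.74 ± 0.33), Ccr1 (1.86 ± 0.28) and Ccrl2 (1.53 ± 0.36, adjusted p = 0.0108) were higher and Cx3cr1 (-1.77 ± 0.35, adjusted p = 0.00317) lower. Without sATM 1 the Cx3cr1 difference was -2.58. On the linear scale the mean of Ccrl2 was 110.1 CPM in the fat groups and 118.6 CPM in the others, since the low values of SpM and microglia weigh more on the log scale. The Ccrl2 call was lost without sATM 2 (adjusted p = 0.123) or vATM 2 (adjusted p = 0.05002) and in the 3 tests on RPKM.

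**Figure D2:**
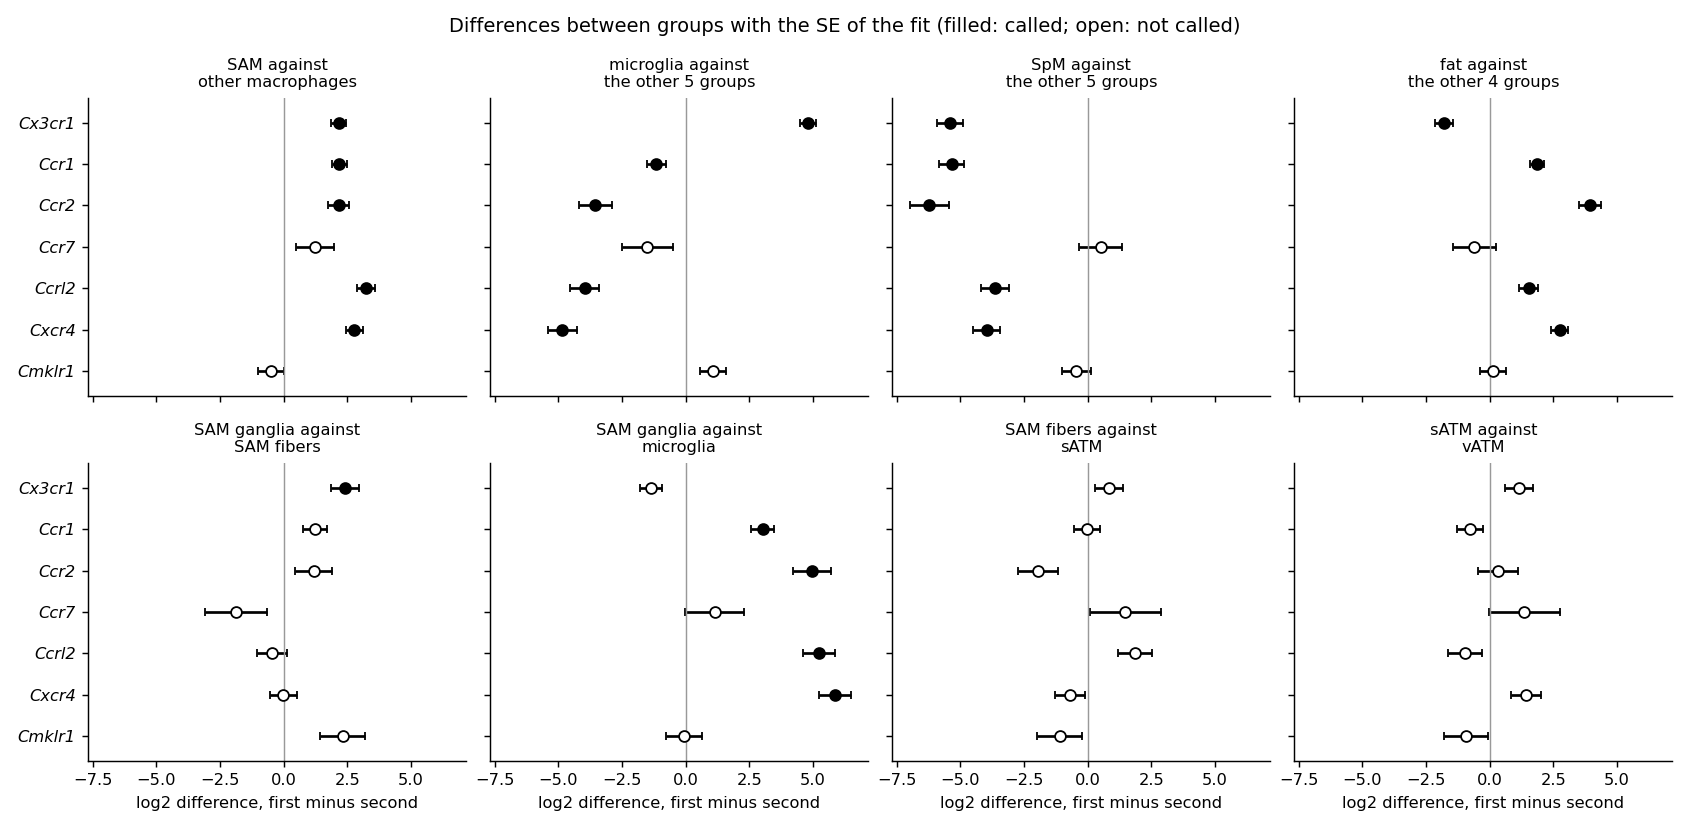
Log2 difference of each gene in 8 comparisons, with bars of 1 SE of the fit; filled points were called and open points were not. Cx3cr1 lies to the right in microglia (4.80) and to the left in SpM (-5.42), while Ccr1, Ccr2, Ccrl2 and Cxcr4 lie to the left in both.

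The comparison of ganglia with microglia set macrophages of peripheral nervous tissue beside those of the brain. Ganglia were higher for 4 of 7 (6.93% of all genes called, 4.91% higher): Cxcr4 by 5.87 ± 0.62, Ccrl2 by 5.23 ± 0.65, Ccr2 by 4.97 ± 0.75 and Ccr1 by 3.02 ± 0.45. Microglial markers were present in ganglia as well, with 8 of 8 genes at 1 CPM or more and a sum of 2106 to 2552 CPM, against 405 to 527 CPM in fibers, 146 to 732 CPM in sATM, 681 to 785 CPM in vATM and 88.1 to 177 CPM in SpM.

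In every other pair of a nerve or fat group with SpM or microglia, 5 of 7 genes were called. Against SpM, with Cx3cr1, Ccr1, Ccr2, Ccrl2 and Cxcr4 higher in each case, the shares of all genes called were 9.56% for ganglia, 16.8% for fibers, 8.76% for sATM and 8.7% for vATM. Cx3cr1 exceeded SpM by 7.16 ± 0.58 in ganglia, 4.75 ± 0.54 in fibers, 3.91 ± 0.52 in sATM (2.18 without sATM 1) and 2.76 ± 0.50 in vATM. Against microglia, with Cx3cr1 lower and the other four genes higher, the shares were 16.4% for fibers, 11.7% for sATM and 10.7% for vATM. The Ccr1 difference between fibers and microglia was 1.80 ± 0.47 (adjusted p = 0.0139), and its call was lost without microglia 1 (adjusted p = 0.0526) or microglia 3 (adjusted p = 0.0620). The Ccr1 call between sATM and microglia was lost in 6 alternatives, among them without sATM 2 (1.07, adjusted p = 0.342), without microglia 3 (adjusted p = 0.0718) and the 3 tests on RPKM, and that between vATM and microglia in 2. Between SpM and microglia 3 of 7 were called, all lower in SpM (11.1% of all genes): Cx3cr1 (-8.52 ± 0.61), Ccr1 (-3.48 ± 0.50) and Ccr2 (-2.23 ± 0.69, adjusted p = 0.0493). The Ccr2 libraries of these groups overlapped, and the call was lost in 14 of 26 alternatives; the difference was -0.93 without microglia 1 and -3.47 without SpM 1.

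Between the 2 nerve sources, 1 of 7 genes was called (4.11% of all genes). Cx3cr1 was higher in ganglia than in fibers by 2.40 ± 0.54 (adjusted p = 0.0195). The call was lost without SAM ganglia 1 (adjusted p = 0.0502) or SAM fibers 1 (adjusted p = 0.113), with differences of 2.28 and 2.18. Sympathetic neuron markers summed to 210.3 to 567 CPM in fibers and 77.2 to 108 CPM in ganglia, and Schwann and satellite glia markers to 122 to 186 and 28.4 to 63.1 CPM; their part in this difference was not tested. Between fibers and sATM, and between sATM and vATM, 0 of 7 genes were called (4.84% and 0.0392% of all genes, edgeR). At an unadjusted p under 0.05 there were 2, Ccr2 and Ccrl2, in the first comparison and 1, Cxcr4, in the second. DESeq2 called 1 (Ccrl2) and 0, and voom 0 and 0. Without sATM 1, Cx3cr1 was called higher in fibers than in sATM (2.42 ± 0.47, adjusted p = 0.0125), and without sATM 2 higher in sATM than in vATM (1.91 ± 0.39, adjusted p = 0.0446).

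Levels of different genes can be set side by side only per length, in the RPKM values of the authors. In microglia Cx3cr1 had 1463 ± 148 RPKM (SD, n = 3), and the next gene, Cmklr1, 28.4 ± 6.58. In ganglia the order was Cx3cr1 (459 ± 136 RPKM, n = 3), Ccr2 (156 ± 39.2), Ccrl2 (102 ± 33.8), Cxcr4 (54.4 ± 8.97), Ccr1 (52.6 ± 13.5), Cmklr1 (20.8 ± 4.08) and Ccr7 (1.48 ± 1.71). In vATM Ccr2 led with 175 ± 4.58 RPKM (n = 2), ahead of Ccrl2 (61.2 ± 12.9), and in sATM Ccr2 led with 274 ± 29.0 (n = 2). In fibers Ccrl2 led with 145 ± 84.3 RPKM (n = 2), and its range overlapped those of Cx3cr1 and Ccr2. In SpM Cmklr1 was the highest of the 7, at only 10.7 ± 3.77 RPKM (n = 3). Among the 7 genes, the leading transcript thus differed between brain and ganglia (Cx3cr1), fat (Ccr2), fibers (Ccrl2) and spleen (Cmklr1). These ranks were read from means with no test. They leave out other receptor genes, such as Ccr3, at 803 CPM in SpM beside 27.8 CPM of Cmklr1. CPM is not adjusted for length, so these values do not rank the genes.

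**Figure D3:**
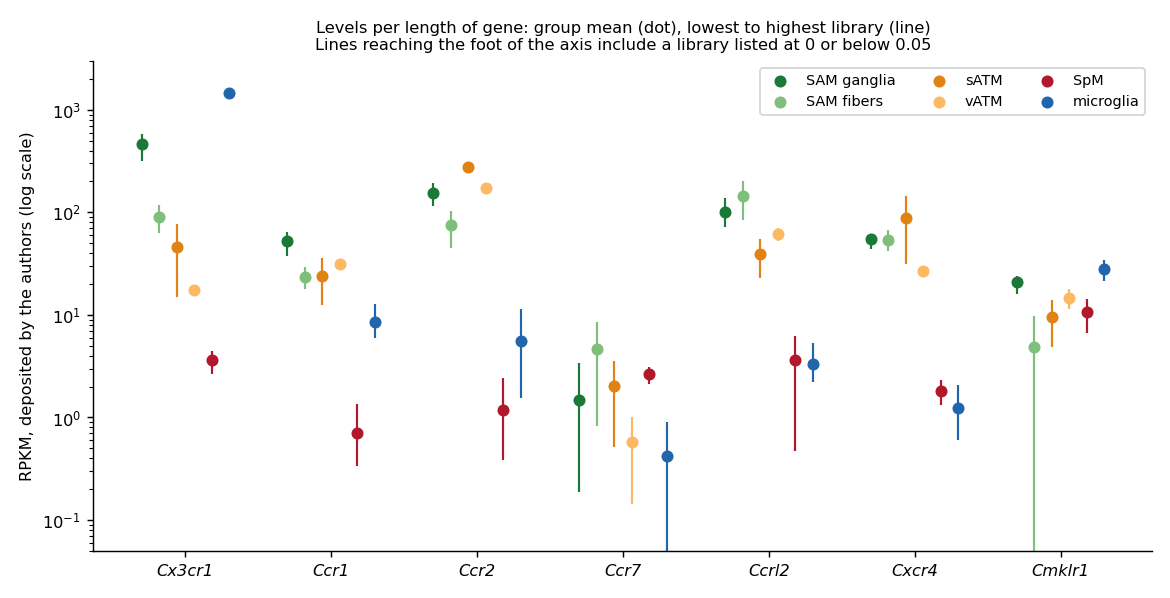
Level per length of each receptor gene (RPKM on a log axis) by group, as the group mean with a line from the lowest to the highest library; lines that reach the foot include a value of 0. Cx3cr1 stands highest in microglia (1463 RPKM) and ganglia (459), Ccr2 in sATM (274) and vATM (175).

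The other genes of the pathway were read from lists. Of 19 further chemokine receptor genes, 12 could be tested. Spleen macrophages, low for 5 of the 7 genes above, had 803 ± 135 CPM of Ccr3, the eotaxin receptor (SpM against the rest 8.76 ± 0.42, adjusted p = 1.72e-09). The eosinophil genes Siglecf, Epx and Prg2 were at 2.19, 0.675 and 0.185 CPM in the same libraries. Ccr1l1, named for its likeness to Ccr1, was also higher in SpM (2.90 ± 0.89, adjusted p = 0.0398). How reads shared by such relatives were counted is not given in the sources used here. Cxcr3 was higher in ganglia than in microglia (3.47 ± 1.005, adjusted p = 0.0472; 10.3 ± 6.71 against 0.853 ± 0.777 CPM).

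Of 12 ligand genes, 10 were in the table and 9 were tested. In SAM against the rest 5 of 9 were higher and 0 lower (9.15% of all genes called; median 2.60 against 0.02 for all genes): Ccl3 (4.85 ± 0.23) and Ccl5 (2.58 ± 0.59) for Ccr1, and Ccl2 (5.20 ± 0.41), Ccl7 (5.67 ± 0.50) and Ccl12 (5.65 ± 0.36) for Ccr2. Ccl6 and Ccl9, further ligands of Ccr1, were highest in fat, with 1849 ± 324 and 803 ± 263 CPM in vATM. Fat against the rest had 5 higher and 0 lower (8.56% of all genes called; median 1.57 against -0.06). SpM had 0 higher and 6 lower (12.4% of all genes; median -6.89 against -0.03), and microglia 0 higher and 5 lower (13.7% of all genes; median -1.71 against 0.29). In fibers against sATM 4 were higher and 1 lower (4.84% of all genes called), the latter being Ccl6 (-2.09 ± 0.49), although none of the 7 receptors was called there. Cx3cl1 (0.0507 to 4.03 CPM as group means) and Cxcl12 (0 to 3.84 CPM) were low in all groups, and Ccl21a was too low to test. Values for Ccl19 and Rarres2 were not used here.

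Of 23 genes of signalling below the receptors, 22 were tested and 14 differed among the groups, where 22.2% of all genes did. Rgs proteins shorten G protein signals. Rgs10 was higher in microglia (2.16 ± 0.17) and lower in SpM (-1.93 ± 0.22), the same directions as Cx3cr1. Rgs1 and Rgs18 were higher in SAM (1.84 ± 0.30 and 2.39 ± 0.40) and in fat (1.25 ± 0.31 and 3.15 ± 0.41). Both were lower in microglia (-4.07 ± 0.49 and -3.78 ± 0.65, the latter named after its value was seen), and Rgs18 was lower in SpM (-5.09 ± 0.71). Grk3, a kinase that desensitises receptors, was higher in SpM (2.503 ± 0.34). Elmo1 and Pik3cg, which act downstream in migration, were higher in microglia (1.92 ± 0.25 and 1.39 ± 0.24). In SAM 2 of 22 were higher and 1 lower, Rgs19 (-1.02 ± 0.17), with a median of -0.22 against 0.02 for all genes. Of all genes 5.71% were called higher and 3.44% lower there, so this count is near the background.

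The genes whose log2(CPM + 1) followed each receptor most closely were picked by Pearson r over the 15 libraries among 6199 genes with a mean of at least 10 CPM. For Cx3cr1 they were Pmepa1 (r = 0.981), Arsb (0.958) and Lpar6 (0.958). For Ccr1 they were Igfbp4 (0.974), Slamf9 (0.960) and Dab2 (0.954), and for Ccr2 F13a1 (0.988), Eps8 (0.970) and Tpm4 (0.967). For Ccrl2 they were Pf4 (0.964), Zfp36 (0.963) and Fos (0.961), and for Cxcr4 Klf4 (0.960), Runx3 (0.958) and Dusp1 (0.955). Ccr7 had no gene above Nfkb2 (0.796), followed by Irf1 (0.754) and Cd274 (0.752). For Cmklr1 they were Heatr5a (0.965), Rcsd1 (0.961) and Foxj2 (0.957), which took places 31, 5 and 84 without SAM fibers 1. By Spearman's rho Igfbp4, Nfkb2 and Irf1 kept a place among the first 3, and the other genes named did not; Klf4 took place 95, Pf4 place 62 and Tpm4 place 51. Libraries of a group share tissue and digestion, so these values describe tissue patterns.

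How much of each raw count remained in the corrected table differed between genes. The share was 52.7% to 99.0% for Cx3cr1 and 54.8% to 96.1% for Ccr1, with the lowest in SpM 3. For Cmklr1 it was 0% to 67.3% and for Ccr7 21.0% to 96.2% (14 libraries with raw counts). The lowest shares of Ccr2 (20.8%), Ccrl2 (14.1%) and Cxcr4 (20.4%) were in SpM or microglia libraries, where these genes had few counts. In tests on the raw gene-body counts, which keep introns and DNA background, 38 of the 65 called differences were lost and none changed direction.

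**Figure D4:**
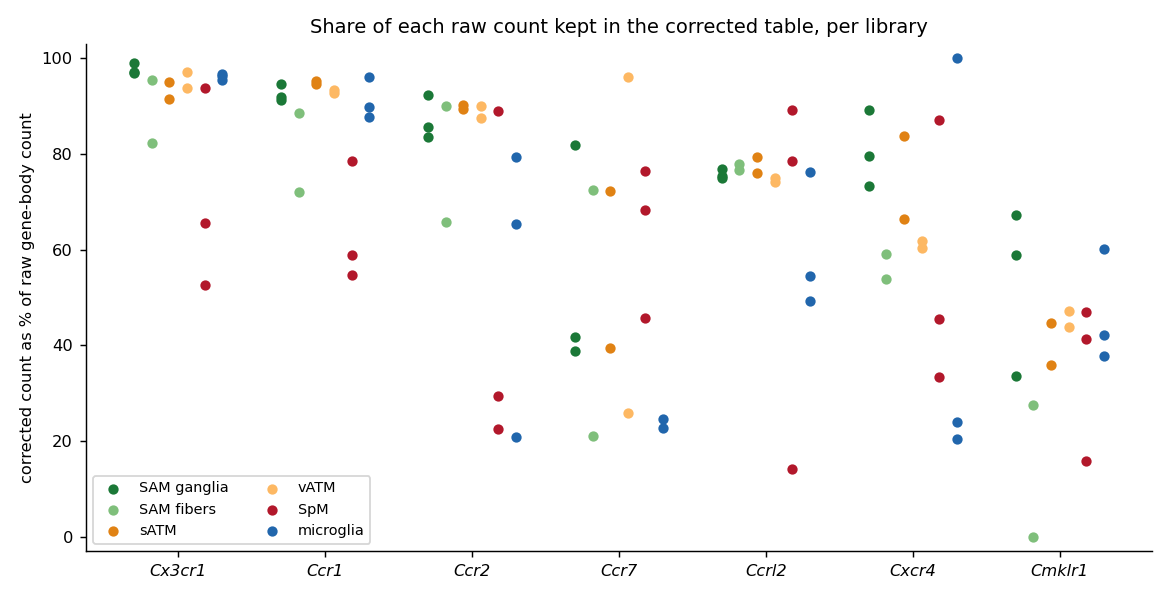
Corrected count as a percentage of the raw gene-body count, for each gene and library; a library with no raw count is left out. Cx3cr1 points lie at 52.7% or above, and the lowest Cmklr1 point, SAM fibers 1, is at 0%.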

How the data were processed

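Macrophages from 6 tissue sources were profiled in 15 libraries. The authors deposited estimated counts corrected for DNA contamination (24084 genes; 45.3% of values whole within 1e-09), raw gene-body counts (24525 genes) and RPKM values (24414 genes), per the file headers. Per the submitters' processing notes the tools were STAR and HOMER and the build mm10; their roles and versions are not stated. Date-like gene names (25) were resolved by transcript identifier. Differences were tested in R 4.3.3 by edgeR 4.0.16, after rounding the corrected values (filterByExpr minimum count 10, TMM, 1 mean per group over all 15 libraries, quasi-likelihood F-tests, Benjamini-Hochberg over 15289 genes); the biological coefficient of variation was 0.680. Groups follow the library titles. DESeq2 1.42.0, limma 3.58.1 (voom, RPKM), the raw counts, a replicate block and each library left out were alternatives. The text names all 7 genes, every ligand, up to 4 called genes of each list and comparison (smallest p first) and the 3 genes closest to each receptor. The edgeR test was also run on counts simulated from the observed mean levels and its own fitted spread. That simulation held no DNA background and no correction for it, so it cannot speak to their effect. Some listed genes are not reported here. The genes and lists were chosen with earlier results of these data known.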

Additional observations from a re-analysis of the deposited data

How the results depend on the processing

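Of 65 called differences of single receptors, 27 were called under all 26 alternatives, 31 were lost only with the raw gene-body counts, and 7 were lost under others too; none changed direction. With the raw counts the number of receptors called was 0 in SAM against the rest (5 in the corrected counts), 2 in microglia (5), 3 in fat (5), 0 between ganglia and fibers (1) and 2 between ganglia and microglia (4). Of the uncalled differences printed above, 2 reversed there, Cx3cr1 in fibers against vATM (-0.26) and Ccrl2 in fibers against sATM (-0.20); uncalled differences that are not printed turned there too, such as Cx3cr1 in fibers against sATM (-1.61). The cause was not tested. Fibers against sATM had 2 called with no filter on low counts, 1 with DESeq2 and 1 without SAM fibers 1 and sATM 1 together, a setting chosen after seeing the data. Ganglia against fibers had 2 with no filter and 2 with log2(RPKM + 1), with Cmklr1 called beside Cx3cr1 in both. That Cmklr1 difference uses the 0 listed in SAM fibers 1. Leaving out 1 library of ganglia, SpM or microglia gave 0 to 1 called in fibers against sATM and 0 to 1 between ganglia and fibers. Between sATM and vATM it gave 0. Leaving out a library of a group of 2 leaves 1 there, and the range over those settings is not given. With group means taken off, correlations of same-numbered libraries ran from -0.381 to 0.639. For replicate 1 they were all positive among ganglia, sATM, vATM, SpM and microglia (0.18 to 0.639). Those with SAM fibers 1 were all negative (-0.107 to -0.381). The 2 libraries of a group of 2 mirror each other on this measure. These values therefore cannot settle whether replicate numbers mark a shared animal or day. With a replicate block 5 receptors were called in SAM. Among 72 values 1 call, Ccr1 in microglia, was lost and 2 were gained, Cx3cr1 in fibers against vATM and Cmklr1 in fibers against microglia. Over all genes the block moved sATM against vATM from 6 to 13 calls. Counts over all genes moved more: 1399 in SAM ran from 17 (raw) to 3369 (without SAM fibers 2), 740 in fibers against sATM from 0 (raw) to 2979, 629 in ganglia against fibers from 0 to 2737, 1060 in ganglia against microglia from 62 to 1810, 1903 in SpM from 585 to 3036, 1308 in fat from 376 to 2483, 2099 in microglia from 325 to 3140, 3389 among the 6 groups from 639 to 5253, and 6 in sATM against vATM from 0 to 113. The share of called genes that were higher in SAM was 62.4%, and 72.3% with RLE scaling, which moved the median of all genes from 0.02 to 0.19. In fibers against sATM that share was 38.2%, and 57.1% with RLE (median 0.28), and in ganglia against fibers 69.2%, and 50.3% with RLE (median -0.25). Under RLE no receptor call was lost, and 1, Cx3cr1 in fibers against vATM, was gained. With 2 or 3 libraries a group, and 0 to 79 counts of Ccr7, small differences were beyond reach.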
